A study of Canis lupus familiaris with 124 samples.

Results

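TCF7 (ENSCAFG00000000990) and LEF1 (ENSCAFG00000011252) were followed in 8 canine prostate and bladder cancer cell lines and in 9 tumor tissues. They are 2 of the 32183 genes in the files and were chosen by name, as transcription factors of the Wnt pathway. In canonical Wnt signaling, a secreted Wnt ligand binds a Frizzled receptor and its LRP co-receptor, and β-catenin is then spared from degradation and enters the nucleus. β-catenin does not bind DNA by itself, and the TCF/LEF proteins hold it at the target genes. Without β-catenin, the same proteins keep these genes repressed together with TLE corepressors. Both genes are also well known outside tumor cells: TCF7 and LEF1 are expressed in T cells and guide their development, and LEF1 is expressed in mesenchyme.

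All samples came from dogs with spontaneous tumors. Of the 5 cell lines of prostate adenocarcinoma (PAC), Adcarc0846 came from dog 2 (German Rough-haired Pointer, male, 6 years) and Adcarc1508 from dog 3 (mixed breed, neutered male, 11 years). The other 3 came from dog 4 (Dobermann, neutered male, 6 years): Adcarc1511.1 from the prostate, and Metadcarc1511.2 and Metadcarc1511.3 from metastases. Of the 3 lines of transitional cell carcinoma (TCC), TCC0840 was grown from an aspiration biopsy of dog 5 (Pitbull Terrier, neutered male, 10 years). TCC1509 came from the prostate of dog 6 (Bolonka Zwetna, neutered male, 9 years) and TCC1506 from the bladder of dog 7 (Labrador Retriever, female, 10 years). The PAC tissues were the prostate tumor P2 of dog 2 and the lymph node metastases Ln4.2 and Ln4.3 of dog 4. The TCC tissues were the prostate tumor P6.1 and the lymph node metastasis Ln6.2 of dog 6, and the bladder tumors B7, B8, B9 and B10 of dogs 7, 8 (Cairn Terrier, female, 11 years), 9 (Miniature Pinscher, neutered female, 8 years) and 10 (German Shepherd, female, 8 years). Each line was sequenced as 2 or 3 cultures taken at passages 68 to 448, and each tissue as 1 library, so that the spread between tissues is that between tumors and the spread between cultures is that within 1 line. TCC0840 was diagnosed by cytology and has no tissue here, and neither has Adcarc1508 or Adcarc1511.1. For 3 of the 4 sequencing lanes of the first Adcarc0846 culture, the labelled line name, age and patient count upward from lane to lane, and these lanes were assigned by their titles. In 5 cases, a line could be set against the tissue it was grown from: Adcarc0846 with P2, Metadcarc1511.2 with Ln4.2, Metadcarc1511.3 with Ln4.3, TCC1509 with P6.1 and TCC1506 with B7.

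The 22 libraries of cell lines held 15355798 to 19935282 counts and the 9 tissue libraries 11920463 to 18086895. Levels are given as CPM, read counts divided by the library's total after TMM scaling. In the cell lines, 7 epithelial marker genes summed to 345 to 2202 CPM. The lowest sum was that of TCC1509, in which CLDN7 was at 0.151 CPM and TMPRSS2 was at 0 counts, while DCN and COL3A1, markers of fibroblasts, were at 414 and 576 CPM. The other 3 fibroblast markers, COL1A1, COL1A2 and POSTN, were at 0.251, 0.114 and 0.113 CPM in this line. Myeloid markers, 8 in number, summed to at most 0.152 CPM in every line and to 62 to 1923 CPM in the tissues. By their sample numbers, all tissues, both libraries of Adcarc0846 and TCC0840 and replicates 1 and 2 of TCC1506 form a set, and all other libraries of cell lines, those of TCC1509 included, form another.

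LEF1 was at or near 0 in 7 of the 8 cell lines and was measured in every tissue. In 20 libraries of these 7 lines, 0 to 4 LEF1 counts were found, with 0 counts in 7 libraries. The highest level among these libraries was 0.224 CPM, in a culture of Adcarc1511.1, and 3 counts corresponded to 0.137 to 0.211 CPM. The counting intervals of these 20 libraries all overlapped, and at this depth no difference among them was detectable. The 8th line, TCC0840, held 45 LEF1 counts at passage 350 and 117 at passage 352, or 2.86 and 6.23 CPM. This was 4.55 ± 2.38 CPM (SD, n = 2 cultures), against line means of 0.0190 CPM in TCC1509 to 0.117 CPM in TCC1506 among the other 7.

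Among the tissues, LEF1 was highest in P2 with 688 counts (53.4 CPM), followed by the lymph node metastases Ln4.3 with 567 (38.9 CPM), Ln6.2 with 496 (35.6 CPM) and Ln4.2 with 308 (22 CPM). The bladder tumor B7 held 323 counts (19.8 CPM) and the prostate tumor P6.1 held 183 (10.5 CPM). The lowest tissues were B9 with 117 counts (7.89 CPM), B10 with 82 (6.31 CPM) and B8 with 69 (3.72 CPM). The cell lines and tissues thus overlapped at TCC0840, whose culture at passage 352 was above B8 and close to B10. Without TCC0840, the highest upper counting limit of any line library was 0.572 CPM, and the lowest tissue was at 3.72 CPM.

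TCF7 was spread differently. The line TCC1509 had the highest level of all 17 samples, with 1194 counts at passage 77 and 714 and 470 counts in 2 cultures at passage 85 (68.1, 43.1 and 26.2 CPM). Its mean was 45.8 ± 21.1 CPM (SD, n = 3 cultures), and its cultures differed by up to 2.60-fold. In the 19 libraries of the other 7 lines, TCF7 was low but counted throughout, with 11 to 111 counts or 0.664 to 6.02 CPM. Adcarc1508 had 5.05, 3.45 and 3.95 CPM, Metadcarc1511.2 had 2.5, 6.02 and 3.56 CPM, and Metadcarc1511.3 had 1.53, 4.07 and 4.03 CPM. The lower lines were Adcarc1511.1 with 2.04, 1.40 and 1.27 CPM, TCC0840 with 1.65 and 1.86 CPM, Adcarc0846 with 1.3 and 1.63 CPM, and TCC1506 with 1.09, 0.664 and 1.93 CPM. Cultures of 1 line differed by 1.13-fold in TCC0840 to 2.91-fold in TCC1506, so that most of these lines overlapped.

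In the tissues, TCF7 reached 361 counts (28 CPM) in P2, 405 (27.8 CPM) in Ln4.3 and 223 (15.9 CPM) in Ln4.2, the 3 PAC tissues. All TCC tissues were below them, with 150 counts (8.62 CPM) in P6.1, 118 (8.48 CPM) in Ln6.2, 106 (6.49 CPM) in B7, 70 (3.77 CPM) in B8, 41 (2.76 CPM) in B9 and 11 (0.846 CPM) in B10. B10 was thus lower in TCF7 than the mean of every cell line, but not lower than each culture of TCC1506. Tissues and lines overlapped broadly, and the TCC1509 culture with the fewest counts was just below P2 and Ln4.3.

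**Figure D1:**
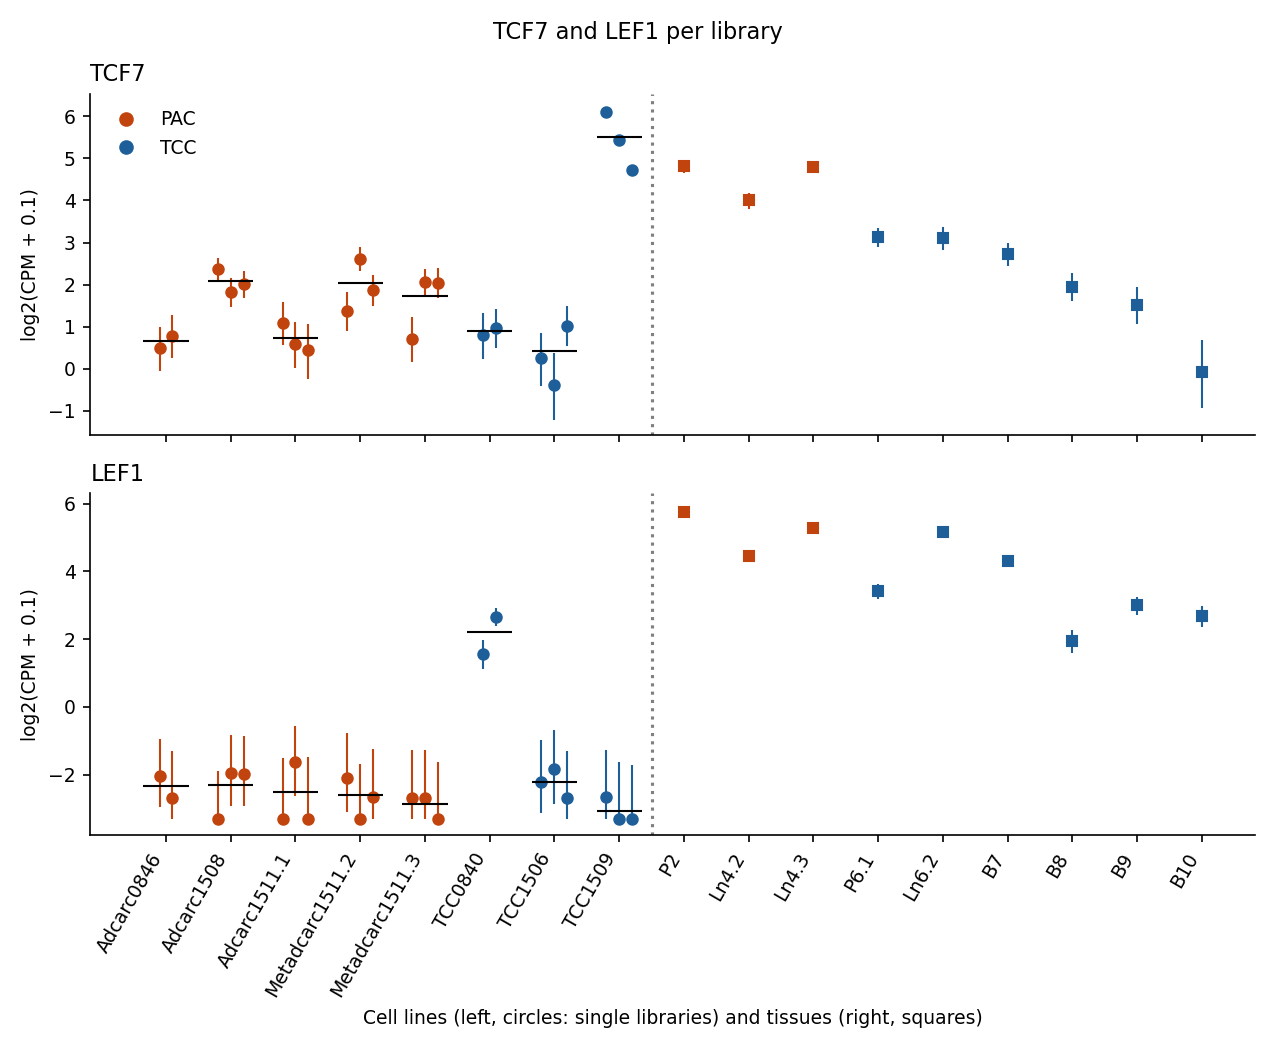
Levels of TCF7 (top) and LEF1 (bottom) as log2(CPM + 0.1) in each library of the 8 cell lines (circles, left of the dotted line) and in the 9 tissues (squares). Vertical bars are 95% Poisson counting intervals, horizontal bars are means of a line's cultures, and red and blue mark PAC and TCC. TCC1509 is above the other lines in TCF7, between 26.2 and 68.1 CPM, and TCC0840 is above the other lines in LEF1, at 2.86 and 6.23 CPM.

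Ordered by mean level, neighbouring samples were compared by the full range of their counting intervals. For LEF1, 12 of the 16 neighbouring pairs overlapped. The 4 steps between neighbours that did not overlap lay between P2 and Ln4.3, between Ln6.2 and Ln4.2, between B7 and P6.1, and between B8 and TCC1506, the latter separating 7 cell lines from all other samples. For TCF7, 14 of 16 overlapped, and the steps lay between Ln4.3 and Ln4.2 and between Ln4.2 and P6.1. These intervals cover counting error alone.

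In each of the 5 pairs, LEF1 was lower in the cell line than in the tissue it was grown from. The line with the most remaining counts was TCC1506, with 6 LEF1 counts over 3 cultures against 323 in B7, a ratio 172-fold lower (95% counting interval 78.1 to 472). TCC1509 held 1 count against 183 in P6.1 (548-fold lower, 97.1 to 21748), and Adcarc0846 held 4 against 688 in P2 (522-fold lower, 203 to 1921). For the metastases of dog 4, the counts were 3 in Metadcarc1511.2 against 308 in Ln4.2 (365-fold lower, 124 to 1780) and 2 in Metadcarc1511.3 against 567 in Ln4.3 (1016-fold lower, 280 to 8408). The intervals of all 5 pairs overlapped, so that no pair could be told from the others in size.

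TCF7 was lower in 4 of the 5 lines and higher in the 5th. Adcarc0846 was 19.2-fold below P2 (counting interval 14.5 to 25.9), Metadcarc1511.3 8.69-fold below Ln4.3 (7.24 to 10.5), TCC1506 5.21-fold below B7 (3.79 to 7.20) and Metadcarc1511.2 3.87-fold below Ln4.2 (3.19 to 4.70). TCC1509 was 5.30-fold above P6.1 (4.49 to 6.29), and each of its 3 cultures was above P6.1, by 1.60 to 2.98 on the log2 scale. In the same line, LEF1 went from 183 counts in the tissue to 1. The lymph node metastasis Ln6.2 of the same dog, from which no line was grown, had 8.48 CPM of TCF7 and 35.6 CPM of LEF1.

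**Figure D2:**
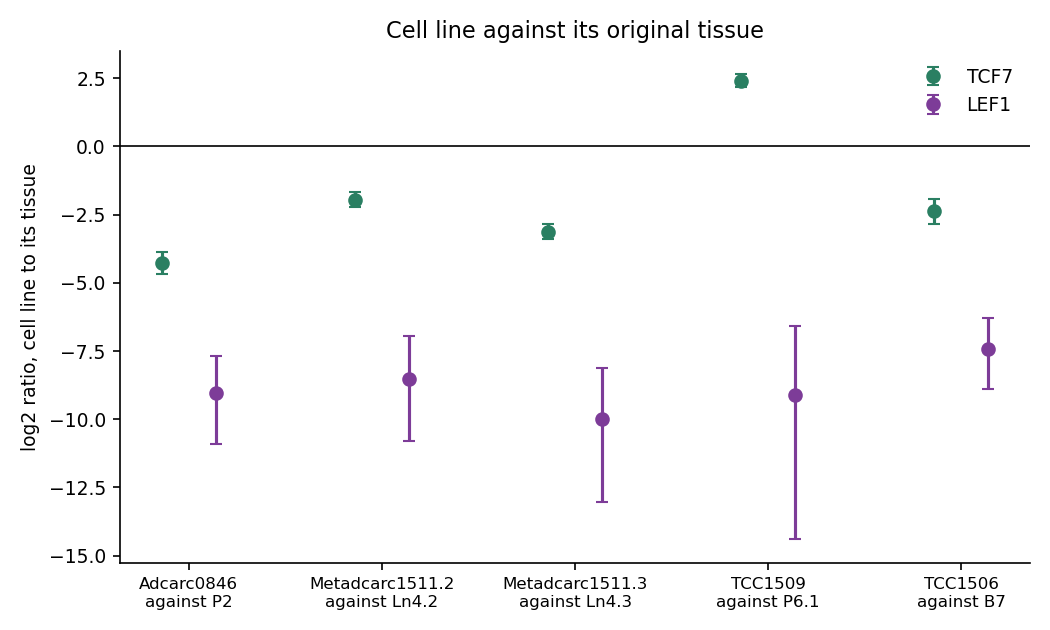
Log2 ratio of each cell line to its original tissue for TCF7 (green) and LEF1 (purple) in the 5 pairs, with libraries of a line summed. Bars are exact 95% counting intervals without the spread between cultures. LEF1 is below 0 in all 5 pairs, between -9.99 and -7.43, and TCF7 is below 0 in 4 pairs and at 2.41 in TCC1509.

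Fitted over the 5 pairs with the pair as a covariate (edgeR, quasi-likelihood test), LEF1 fell by 8.71 on the log2 scale in the cell lines (standard error 0.53, 95% interval -9.99 to -7.44, Benjamini-Hochberg adjusted p = 0.00104) and was a differentially expressed gene (DEG), a term used here for an adjusted p no larger than 0.01 together with a change of 2-fold or more. LEF1 entered this and the next test through its counts in the tissues, since a gene needed 10 counts in every sample of 1 of the groups compared. Of 12851 genes tested, 171 (1.33%) were DEGs, 1.29% lower and 0.0389% higher. For TCF7, the log2 fold change was -2.24 (standard error 1.04, interval -4.76 to 0.27, adjusted p = 0.219), and it was no DEG. Both pairs of dog 4 share a patient. Leaving out the pair of Adcarc0846 or that of Metadcarc1511.2 gave adjusted p = 0.01003 and 0.0111 for LEF1, with log2 fold changes of -8.60 and -8.77. Both p-values were just above 0.01, so that LEF1 was no DEG in either fit.

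All 17 samples were then compared in a fit over 4 groups, in which the line effect is the mean of those of PAC and TCC. The fit had no term for the dog, although 5 of the samples came from dog 4 and others also shared a dog. Here LEF1 fell by 6.03 (standard error 0.97, interval -8.10 to -3.96, adjusted p = 2.77e-04), while 16.8% of 14503 genes were DEGs, 13.3% lower and 3.56% higher. Without TCC0840, the value for LEF1 was -8.27. The value for TCF7 was -0.71 (0.66, interval -2.10 to 0.69, adjusted p = 0.433). It rested on TCC1509: without this line, it was -2.43 with adjusted p = 0.00339, past the DEG threshold. TCC1509 stood out in TCF7 in these same data, so that this p is a description. Among the libraries of the sample number set that holds the tissues, with 3 cell lines, the value was -5.45 for LEF1 (adjusted p = 0.0307) and -2.96 for TCF7 (0.0370), neither of them a DEG, and this set cannot be told apart from the choice of lines.

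Within PAC, LEF1 fell by 8.91 (standard error 1.32, interval -11.72 to -6.10, adjusted p = 1.85e-04) between 3 tissues at 22 to 53.4 CPM and 5 lines at 0.0375 to 0.104 CPM. Of these samples, 5 came from dog 4, and Adcarc0846 and P2 came from the same dog, while the fit treated all as independent. LEF1 had 2 to 6 counts in each PAC line and entered through the tissues here as well. The DEGs of this comparison made up 13.8% of genes, 12.1% lower and 1.74% higher. TCF7 was at 15.9 to 28 CPM in the PAC tissues and at 1.47 to 4.15 CPM in the PAC lines. Its log2 fold change was -3.07 (0.94, interval -5.06 to -1.08, adjusted p = 0.0255), short of the threshold. It was past the threshold by DESeq2 (adjusted p = 0.00296) and without TCC1509 in the fit (0.00187). The latter p is a description, since TCC1509 stood out in TCF7 in these same data. In the sample number set of the tissues, 1 PAC line was left, and LEF1 had a log2 fold change of -8.34 with adjusted p = 0.0990.

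Within TCC, neither gene was a DEG, while 3.45% of genes were, 2.92% lower and 0.531% higher. For LEF1, the log2 fold change was -3.15 (standard error 1.20, interval -5.70 to -0.60, adjusted p = 0.101) between 6 tissues at 3.72 to 35.6 CPM and 3 lines at 0.0190, 0.117 and 4.55 CPM. Without TCC0840, this was -7.62 with adjusted p = 0.00757, past the threshold. TCC0840 stood out in LEF1 in these same data, so that this p is a description. TCF7 had a log2 fold change of 1.65 (0.87, interval -0.20 to 3.51, adjusted p = 0.236), with the lines at 1.23, 1.76 and 45.8 CPM. Without TCC1509, it was -1.79 (adjusted p = 0.163), so that its direction was set by this line. In the sample number set of the tissues, which leaves out TCC1509, the value for TCF7 was -1.99 (adjusted p = 0.209).

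The change from tissue to line was compared between TCC and PAC directly. The difference was 5.76 for LEF1 (standard error 1.47, interval 2.63 to 8.89, adjusted p = 0.123) and 4.72 for TCF7 (1.27, interval 2.02 to 7.42, adjusted p = 0.141) on the log2 scale. Neither passed the threshold in this test, which called 1 gene of 14503 (0.0069%), with 0% lower, and 1662 genes at an unadjusted p under 0.05. DESeq2 called LEF1 in this comparison (adjusted p = 0.00692). Without TCC0840 the difference for LEF1 was 1.28, and without TCC1509 that for TCF7 was 1.27.

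Between the tumor types, no difference in TCF7 or LEF1 passed the threshold in either tissues or lines. TCC tissues against PAC tissues gave a log2 fold change of -2.23 for TCF7 (standard error 0.87, interval -4.09 to -0.38, adjusted p = 0.225) and of -1.47 for LEF1 (0.97, interval -3.54 to 0.60, adjusted p = 0.477), with 0.0069% of genes called. TCF7 was at 0.846 to 8.62 CPM in the 6 TCC tissues and at 15.9 to 28 CPM in the 3 PAC tissues, which come from 2 dogs. TCC lines against PAC lines gave 4.29 for LEF1 (1.13, interval 1.88 to 6.70, adjusted p = 0.133) and 2.49 for TCF7 (0.92, interval 0.52 to 4.45, adjusted p = 0.359), again with 0.0069% of genes called. By DESeq2, LEF1 passed the threshold between the lines (adjusted p = 0.00381), and without TCC0840 the sign turned to -0.19. For TCF7, the sign turned to -0.96 without TCC1509 and to -0.14 in the sample number set of the tissues.

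The 8 cell lines were compared over their 22 libraries, with cultures of a line as replicates, so that the spread is that of cultures and not of dogs. Both genes differed among the lines, TCF7 with adjusted p = 2.50e-09 and LEF1 with adjusted p = 2.91e-07 (edgeR, F test over the lines), where 69.4% of 13916 genes passed. Of the 28 pairs of lines, 9 differed in TCF7 and 7 in LEF1, against 19.7% of tests over all genes and pairs. The 7 pairs for LEF1 were those of TCC0840 with every other line, with log2 differences of 5.19 over TCC1506 to 7.44 over TCC1509. LEF1 entered this test through TCC0840 alone, since it had at most 4 counts in every other library, and a gene needed 10 counts in all libraries of 1 line. For TCF7, each of the other 7 lines was below TCC1509, with log2 differences of -3.43 in Adcarc1508 to -5.16 in TCC1506. The remaining 2 pairs were Adcarc1508 over TCC1506 with 1.73 (standard error 0.45, adjusted p = 0.00465) and Metadcarc1511.2 over TCC1506 with 1.67 (0.45, adjusted p = 0.00537). The 3 lines of dog 4 were not called apart in either gene.

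Levels of both genes were compared with each other per transcript length, in TPM, since the model of LEF1 in the files has 3530 bases and that of TCF7 has 1338. By the mean of its libraries, TCF7 was higher than LEF1 in all 8 cell lines and in 5 of the 9 tissues. In the tissues, the ratio of TCF7 to LEF1 TPM lay between 0.365 in B10 and 2.75 in B8. In TCC0840 it was 1.04 and lay among the tissues, but its cultures disagreed. TCF7 was the higher gene at passage 350 (1.89 against 1.20 TPM) and LEF1 at passage 352 (2.79 against 2.27 TPM). In 6 other lines the ratio was 28.4 in TCC1506 to 233 in Metadcarc1511.3. TCC1509 had 58.4 TPM of TCF7 against 0.0090 TPM of LEF1, the latter from 1 count. Over the 9 tissues, both genes went up and down together (Spearman's rho 0.87, Pearson's r 0.82 on log2(CPM + 0.1)). Over the 8 lines, rho was -0.55 and r was -0.34. LEF1 was at or near 0 in 7 of these lines, with no detectable difference among them. The values over the lines therefore cannot show whether the genes go together there. These correlations describe the samples and share the library of each sample.

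**Figure D3:**
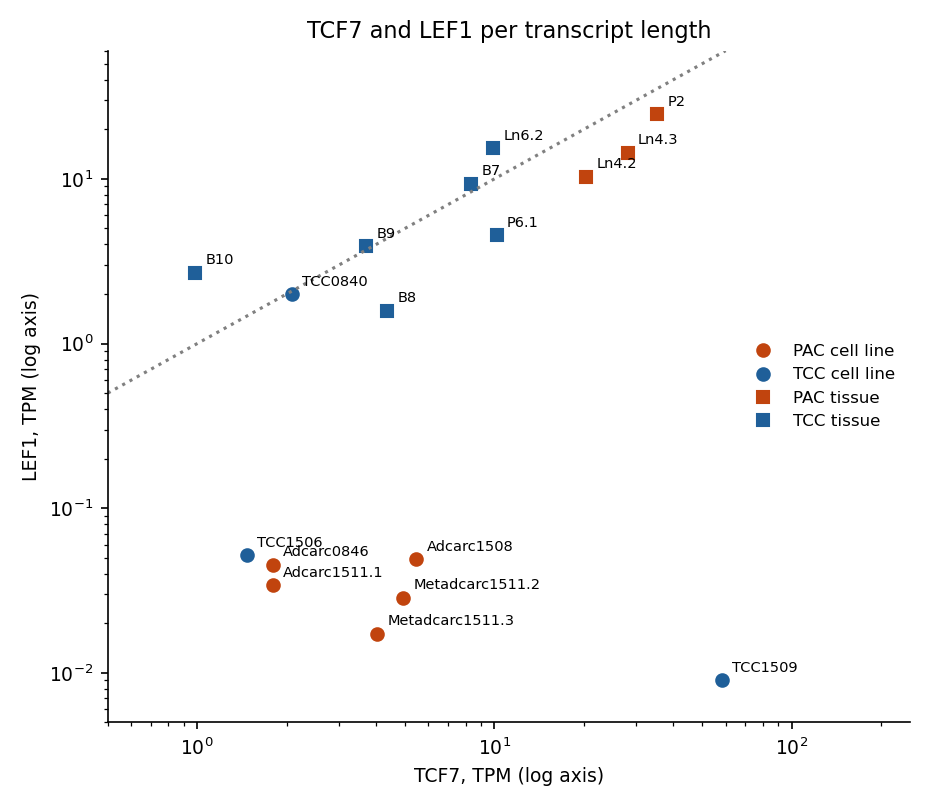
TCF7 (horizontal) and LEF1 (vertical) in TPM, both on log axes, as means of the libraries of each of 17 samples, with circles for cell lines, squares for tissues, red for PAC and blue for TCC. The dotted line marks equal levels. The 9 tissues and TCC0840 lie around it, and the other 7 lines lie at 0.0518 TPM of LEF1 or below, with TCC1509 far to the right at 58.4 TPM of TCF7.

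Other cell types were followed by markers, since a tumor tissue holds lymphocytes, fibroblasts and vessels that a cell line lacks. In bulk samples, fewer cells of a type and less RNA per cell cannot be told apart. Of the lymphocyte markers, 6 of 16 had an identifier (UBASH3A, GIMAP1, PTPN22, P2RY10, IL2RG and VPREB3), and the T cell receptor complex was not among them. They summed to 3.91 to 120.3 CPM in the tissues and to 0.0513 to 10.2 CPM in the lines, where 2 to 4 of the 6 were at 0 counts. The overlap came from VPREB3, a B cell gene with a log2 fold change of 1.27 (adjusted p = 0.321), which made up 9.87 of the 10.2 CPM in Metadcarc1511.3, 0.845 CPM in TCC0840 and 2.26 CPM in B7. Between all lines and tissues, 5 of the 6 lymphocyte, 8 of 8 myeloid, 5 of 5 fibroblast and 4 of 5 endothelial markers fell and 1 of 7 epithelial markers rose, where 13.3% of all genes fell and 3.56% rose. Like LEF1, most of the markers that fell were at or near 0 counts in the lines and entered the test through the tissues, so that these counts are a description.

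The 4 tissues with the most LEF1, 3 of them lymph node metastases, were those with the most lymphocyte markers, and 3 of these 4 were the highest in TCF7. The markers summed to 120.3 CPM in Ln4.3, 101 in P2, 33.4 in Ln4.2 and 26.2 in Ln6.2, and to 16 CPM or less in the other 5. IL2RG alone made up most of the sum in these 4 tissues, with 89.4, 67.6, 19.3 and 16.9 CPM. The same 4 tissues also had the highest sums of fibroblast markers (8243 CPM in Ln4.3 to 95933 CPM in P2). They had the highest sums of endothelial markers as well (540 CPM in Ln4.3 to 1891 CPM in P2). Over the 9 tissues, rho with the lymphocyte sum was 0.70 for LEF1 and 0.72 for TCF7. With myeloid markers rho was 0.68 for LEF1 and 0.83 for TCF7, and with endothelial markers it was 0.62 for both. With fibroblast markers it was 0.75 and 0.80, and with epithelial markers -0.90 and -0.80. Samples high in either gene were thus also high in markers of several other cell types and low in the epithelial sum. EPCAM and TMPRSS2 made up most of that sum in B8, B9 and B10, and single epithelial markers differed. Among the tissues, CLDN7 was highest in Ln4.3 (170 CPM) and lowest in Ln6.2 (0.0718 CPM). CDH3 was highest in B7 (728 CPM) and lowest in P2 (5.12 CPM). How much of the TCF7 and LEF1 counts came from any of these cell types was not tested.

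A few samples went apart from this order. B7 had 19.8 CPM of LEF1, the fifth highest level, with lymphocyte markers at 4.22 CPM, and the lowest sums of myeloid (62 CPM), fibroblast (435 CPM) and endothelial markers (74.8 CPM) among the tissues. B10 had the lowest TCF7 and 16 CPM of lymphocyte markers, of which IL2RG made up 12.8 CPM. In TCC0840, the line highest in LEF1, lymphocyte markers summed to 0.941 CPM with 4 of 6 at 0 counts, and all 8 myeloid markers were at 0 counts. In TCC1509, the line highest in TCF7, lymphocyte markers summed to 1.80 CPM with 3 of 6 at 0 counts, while fibroblast markers summed to 991 CPM, nearly all of it DCN and COL3A1. IL2RG was at 63 counts (1.21 CPM) in TCC1509 and at 0 or 1 count in every other line. PTPN22 was at 19 counts (0.361 CPM) in TCC1509, its highest level among the lines. This was close to 14 counts in Metadcarc1511.2 (0.301 CPM) and 13 in Metadcarc1511.3 (0.247 CPM). Whether these markers bear on the TCF7 level was not tested.

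**Figure D4:**
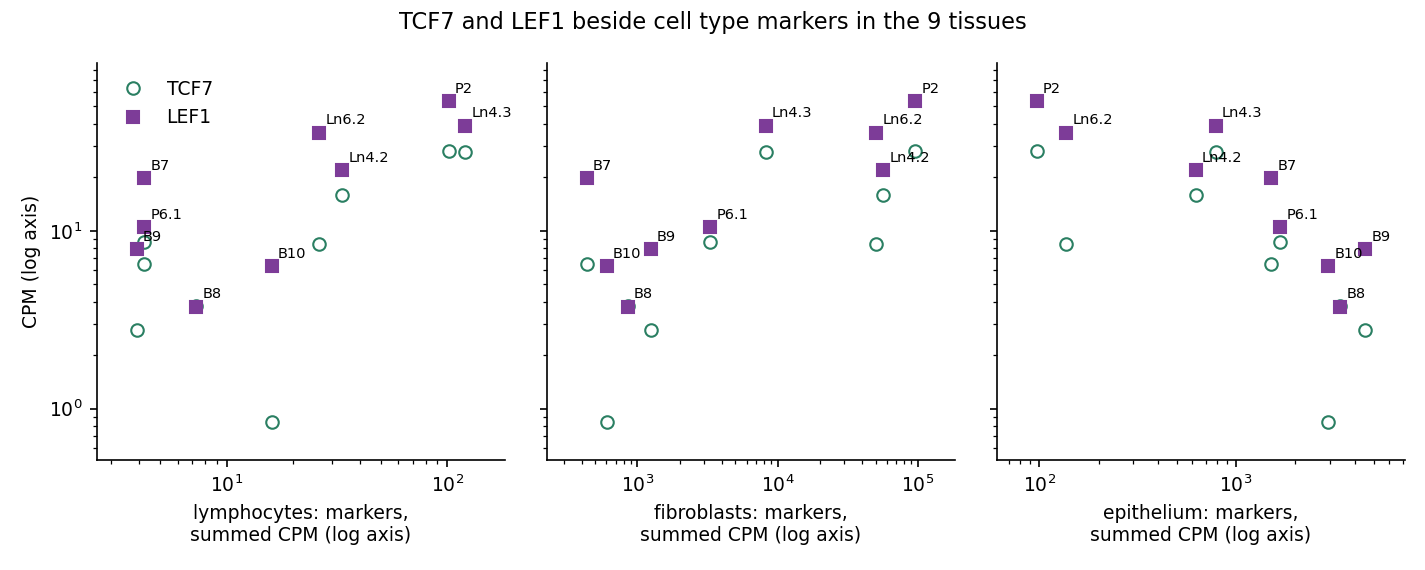
CPM of TCF7 (open circles) and LEF1 (filled squares) in the 9 tissues against the summed CPM of lymphocyte, fibroblast and epithelial markers, on log axes, with the name of the tissue at the higher of its points. P2 and Ln4.3 are highest in both genes and in lymphocyte markers (101 and 120.3 CPM), while B7 has 19.8 CPM of LEF1 at 4.22 CPM of lymphocyte markers.

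Of 97 genes on a list of the Wnt pathway, 17 could be matched to an identifier: 4 of 26 ligands and their helpers, 2 of 20 receptors, 0 of 13 inhibitors, 5 of 17 cytoplasmic components, 5 of 16 nuclear factors and 1 of 5 targets. All but CCND1 were identified through the study's lists of genes associated with drug resistance in these cell lines, so that the 17 are not a neutral sample of the pathway. Genes such as CTNNB1, TCF7L1, TCF7L2 and AXIN2 were not analysed here. Between all lines and tissues, LEF1 alone of the 17 fell and 0 rose, with a median log2 fold change of 0.29 over the list and of -0.02 over all genes. Of all genes tested, 13.3% fell and 3.56% rose. An unadjusted p under 0.05 was found for 10 of the 17 and for 6369 of all 14503 genes. DESeq2 called 3195 genes, 4 of them on the list, namely LEF1, GPC4, WNT11 and RSPO2, all lower. Over the 5 pairs, 14 of the 17 could be tested and LEF1 was called, where 1.29% of all genes fell. Within PAC, 2 of the 17 fell, LEF1 and GPC4, where 12.1% of all genes fell. Within TCC, 0 of 17 were called by edgeR (4 at an unadjusted p under 0.05) and 0 by DESeq2. By edgeR, 2.92% of all genes fell and 0.531% rose within TCC.

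GPC4, a glypican that binds Wnt ligands at the cell surface, also fell in PAC, with a log2 fold change of -8.76 (standard error 1.99, adjusted p = 0.00430). GPC4 held at most 5 counts in any PAC line and entered this test through its counts in the tissues, so that the size of the change is uncertain. It was at 2.27 to 31 CPM in the tissues and at no more than 0.111 CPM in 7 of the lines. The 8th was TCC1506 with 24.8 CPM, and not TCC0840, in which GPC4 was at 0 counts. The ligand WNT5B, which mostly signals without β-catenin, varied in both kinds of sample, from 0.175 CPM in TCC0840 to 47.4 CPM in TCC1506 and from 0.308 CPM in B10 to 244 CPM in Ln6.2. WNT11 and RSPO2, an R-spondin that strengthens Wnt signals, were low in both kinds of sample, with at most 3.48 and 0.515 CPM in the lines and 15.3 and 3.85 CPM in the tissues.

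The receptor FZD3 was at 0.184 to 2.20 CPM in the lines and 0.306 to 3.73 CPM in the tissues. Among the cytoplasmic components, the kinase gene CSNK2A1 was at 66.2 to 197 CPM in the lines and 41.6 to 108 CPM in the tissues, with a log2 fold change of 0.90 (standard error 0.24, adjusted p = 0.00894), below the fold that a DEG required. JUP, the gene of plakoglobin, a relative of β-catenin in cell junctions, was at 325 to 1751 CPM in the lines and 105 to 741 CPM in the tissues. In the nucleus, CREBBP, a coactivator, stayed within 75.3 to 171 CPM over all 17 samples. CCND1, the gene of cyclin D1 and a target of the pathway, was highest in TCC1509 with 361 CPM and lay between 86.6 and 224 CPM in the other lines, and between 16.6 and 179 CPM in the tissues (log2 fold change 1.26, standard error 0.56, adjusted p = 0.0943).

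**Figure D5:**
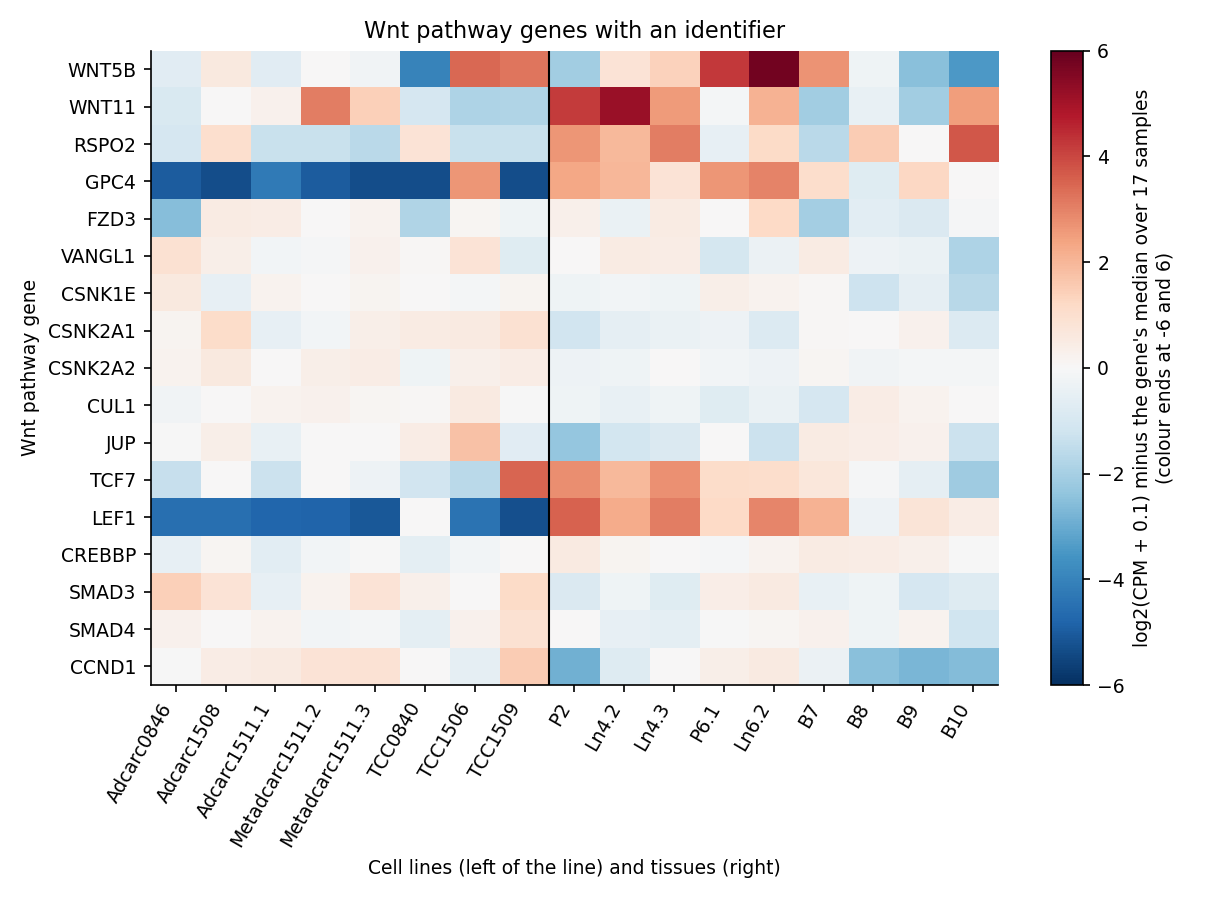
The 17 Wnt pathway genes with an identifier (rows) in 8 cell lines and 9 tissues (columns, divided by the black line), as log2(CPM + 0.1) minus the median of the gene over the 17 samples, with red above and blue below the median. LEF1 and GPC4 are far below their median in 7 lines each, with TCC0840 the exception for LEF1 and TCC1506 that for GPC4, and the highest field of TCF7 is TCC1509.

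Among the 1109 genes with enough counts and a symbol, most of them from the same lists of the study, those most like TCF7 and LEF1 over the 17 samples were named by Spearman's rho. For TCF7, they were FANK1 (0.81), COLGALT1 (0.80), the kinase gene JAK1 (0.79), C32H4orf36 (0.77) and LTBP3 (0.76), which binds latent TGF-β. FANK1 was at 45.0 CPM in TCC1509 and at no more than 0.156 CPM in the other lines. For LEF1, they were LOC611446 (0.93), the collagen gene COL6A1 (0.91), the lipoxygenase gene ALOX15 (0.91), SAP25 (0.91) and TMEM176A (0.91). All 5 were at 1.70 CPM or less in every line, and TMEM176A was at 1.71 to 119 CPM in the tissues and at no more than 0.0850 CPM in the lines. LEF1 was at or near 0 in 7 of the lines, so that its order among these lines carries little information for rho. Among all 16326 genes ranked, with or without a symbol, the named genes held ranks 12 to 36 for TCF7 and 6 to 35 for LEF1. TCF7 and LEF1 themselves had a rho of 0.38 over the 17 samples. With Pearson's r, 1 of the 5 genes was the same for either member, so that these names depend on the measure.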

How the data were processed

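RNA from 8 canine cell lines and 9 tumor tissues was sequenced by the authors as single reads on a NextSeq500. According to the submitters' notes, reads went through Trimmomatic (0.36), were placed on the dog genome CanFam3.1 with STAR (2.5.3) and were summarised per gene by RSEM (1.3.0). The deposited values are RSEM expected counts per gene and sequencing lane, not normalized, together with effective lengths in bases. Whether counting used the strand is not given in the sources used here. An expected count can be a fraction where a read fits several genes: 17.4% of positive values were not whole (tolerance 0.001), but only 1 of the 248 lane values of TCF7 and LEF1.

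The 124 lane tables were summed to 31 libraries (4 lanes each) and, for tests across samples, to 17 samples, and rounded to whole numbers. Symbols for 1120 identifiers came from gene lists of the study, nearly all from its genes ranked by association with drug resistance in these lines, and 0 matched the reference table by identifier. CPM were scaled by TMM and TPM were computed from the effective lengths. Genes with 10 counts in every sample of at least 1 compared group (lines or tissues in the pair fit, any of the 4 groups, or all libraries of 1 line) were tested with edgeR (4.0.16, R 4.3.3) by the quasi-likelihood test, with Benjamini-Hochberg adjustment over all genes. The comparisons were line against original tissue with the pair as covariate, 4 groups of tumor type and sample kind, and the 8 lines over their libraries. Levels have exact 95% Poisson intervals and pair ratios exact 95% counting intervals. The fits were tested on simulated data. Alternatives were DESeq2 (1.42.0), other size factors, no count filter, other sample choices, a replicate block and leaving out each sample. P-values measure the spread between these samples, of which several share a dog.

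The members, gene lists and tests were chosen with earlier results of these data known. Wnt genes and markers were named by list, and the 5 genes with a symbol and the highest Spearman correlation over the 17 samples were named for each member. Libraries outside the 17 samples were not used here. One further lymphocyte marker is not reported here.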

Additional observations from a re-analysis of the deposited data

Results flagged for a closer look

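Of 8 groups of values tested for a sample far from the others, 2 held one, where chance flags about 1 in 20 groups. That rate holds for separate groups of normally distributed values. Here CPM were not transformed, LEF1 was near 0 in 7 lines, and some groups lay within others, so that the flags are a description. Among the 8 cell lines, TCF7 was far higher in TCC1509, with a mean of 45.8 CPM, and the gap to the next line, Adcarc1508 at 4.15 CPM, took up 0.934 of the whole range (critical value 0.526). For LEF1, TCC0840 was the line apart with 4.55 CPM, and its gap to TCC1506 at 0.117 CPM took up 0.978 of the range. The 3 cultures of TCC1509 and both cultures of TCC0840 were each above every culture of the other lines.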

How the results depend on the processing

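Leaving out 1 pair gave -9.07 to -8.43 for LEF1 and -2.99 to -1.63 for TCF7 (log2 fold change), with 22 to 591 DEGs. Over all lines and tissues, leaving out 1 sample gave -8.27 (without TCC0840) to -5.71 for LEF1 and -2.43 (without TCC1509) to -0.43 for TCF7. Within PAC this gave -9.16 to -8.56 for LEF1 and -3.26 to -2.89 for TCF7, and within TCC -7.62 (without TCC0840) to -2.57 for LEF1 and -1.79 (without TCC1509) to 2.20 for TCF7, with 29 to 1055 DEGs. For TCC lines against PAC lines it gave -0.19 (without TCC0840) to 4.86 for LEF1 and -0.96 (without TCC1509) to 3.03 for TCF7, with 1 to 11 DEGs. The difference between TCC and PAC had 1 to 4 DEGs, the tissues had 0 to 106, and the 8 lines had 4078 to 7986 without 1 replicate.

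With the TCC pairs alone, the log2 fold change was 0.0108 for TCF7 and -8.01 for LEF1 (adjusted p = 0.517), with 0 DEGs. The pairs had 1873 DEGs by DESeq2, 306 with no count filter, 435 with no pair term and 1701 with the PAC metastasis pairs alone. By DESeq2, TCF7 was at -3.15 within PAC, and LEF1 at 5.84 for the difference and 4.37 between the lines, with 1714 DEGs within TCC, 197 for the difference, 164 between tissues and 288 between lines. Without the metastasis tissues, these were 277, 12 and 78 DEGs within TCC, for the difference and between tissues. With 1 line and 1 tissue per dog, DEGs numbered 1063 within PAC, 211 within TCC, 14 between tissues, and 0 for the difference and between lines. In the sample number set of the tissues, LEF1 was at -5.45 over all and -8.34 within PAC, and TCF7 at -1.99 within TCC and -0.14 between lines, with 100 DEGs over all and 0 in each of the other 5 comparisons. The cause of these shifts was not tested.

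With a replicate block, F over the 8 lines was 43.2 for TCF7 and 20.1 for LEF1, with 10495 genes passing and the same number of line pairs called. The numbers were not taken to pair the cultures, since no label ties them to a shared batch and not every same-numbered pair deviated together. Deviations correlated by -0.23 to 0.78 (median 0.14, 71 pairs) at the same number and by -0.65 to 0.31 (median -0.05, 140 pairs) at different ones.

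Depth limits LEF1 in 7 lines, where 3 counts equal 0.137 to 0.211 CPM, so that folds against these lines are uncertain in size.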
